A study of Homo sapiens with 12 samples.

Results

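TBP, the TATA-box binding protein, was followed together with its paralogue TBPL1, with TAF1, TAF2 and TAF7, the subunits of the TFIID complex that meet promoter DNA or lie beside TBP and have no histone fold, and with the TBP regulators BTAF1 and DRAP1. These 7 genes were picked by name for their roles, not by their values, from the 32010 genes of the deposited table. Earlier results of these data were known at that time. All 7 passed the filter on low counts, as did 19424 genes in all, so the 7 are the full set.

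The cells were HEK293 Flp-In, derived from human embryonic kidney and fitted with a single genomic landing site for a transgene, and each of 4 groups had 3 libraries of polyadenylated RNA. ΔE8 cells were given an siRNA against TAF5, a TFIID subunit, and then expressed an inducible TAF5 that lacks exon 8 and resists the siRNA. FL cells were given the same siRNA and an inducible, siRNA-resistant TAF5 of full length. siTAF5 cells were given the siRNA with no transgene named in their label, and siNT cells were given a non-targeting siRNA. Every group is labelled as treated with siRNA and doxycycline, and the drug is described as added 24 h after transfection and kept on for 48 h. The stated purpose was to learn whether exon 8 of TAF5 affects gene expression. A single TAF5 siRNA is named, the line in which siTAF5 and siNT cells were grown is not stated, and the doxycycline doses of ΔE8 and FL cells differ, so that dose and construct cannot be told apart. Separate cultures are not stated for the replicates, and a p-value here measures only the spread between these samples, which may be technical.

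TBP is the protein that bends promoter DNA and seeds the transcription machinery of all nuclear RNA polymerases, and in TFIID it is held by a ring of TBP-associated factors. TAF1 is the largest TFIID subunit and covers the DNA-binding face of TBP, TAF7 sits against TAF1, and TAF2 reads the initiator element around the start site. Outside TFIID, the ATPase BTAF1 strips TBP from DNA, while DRAP1, the alpha subunit of negative cofactor 2 (NC2), pairs with DR1 on promoter-bound TBP and blocks the entry of TFIIA and TFIIB.

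The promoters of BTAF1 and DRAP1, which changed in opposite directions when siTAF5 was set against siNT or ΔE8 against FL, are shown beside those of TBP and TBPL1. The highest and lowest group means lay 0.43 apart on the log2 scale for BTAF1, 0.16 for DRAP1, 0.12 for TBPL1 and 0.10 for TBP. DRAP1 thus spread little more than TBPL1, and TAF1 and TAF7, not shown, had gaps of 0.12 too. Whether the sequences bear on these values was not tested. Each promoter shown is the stretch from 100 bases before to 30 bases after the RefSeq start site in build GRCh38.p14, on the plus strand. Capitals mark matches to the GC box (GGGCGG), the ETS core (GGAAGT), the CCAAT box (CCAAT) or the TATA box (TATAAA) on either strand, of which the TBPL1 stretch holds none.
BTAF1: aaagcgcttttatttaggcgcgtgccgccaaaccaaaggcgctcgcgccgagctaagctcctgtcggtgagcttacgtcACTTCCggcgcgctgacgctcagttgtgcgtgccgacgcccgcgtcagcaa
DRAP1: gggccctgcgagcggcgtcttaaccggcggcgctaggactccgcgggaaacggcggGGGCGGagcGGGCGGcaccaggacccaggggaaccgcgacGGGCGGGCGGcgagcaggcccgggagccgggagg
TBP: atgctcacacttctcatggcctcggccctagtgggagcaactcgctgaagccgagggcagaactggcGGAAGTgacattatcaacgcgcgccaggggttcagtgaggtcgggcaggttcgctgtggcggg
TBPL1: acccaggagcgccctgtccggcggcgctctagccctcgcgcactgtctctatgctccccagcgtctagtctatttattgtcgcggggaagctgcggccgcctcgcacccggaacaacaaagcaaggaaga
They lie at chr10:91923670-91923799 (BTAF1), chr11:65919326-65919455 (DRAP1), chr6:170554269-170554398 (TBP) and chr6:133953124-133953253 (TBPL1).

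The RefSeq windows of 300 bases, from 250 before to 50 after the start, were available for 6 of the 7 genes (TAF2 had none). No window of the 6 held TATAAA, which 11.5% of 35116 RefSeq promoter windows hold. The ETS core, present in 22.8% of all windows, was found in those of TBP, TAF1, TAF7 and BTAF1, and in BTAF1 it began 21 bases before the start. The GC box, in 45.0% of all windows, had 10 overlapping or separate matches in DRAP1, whose window was 79% G or C, against 54% in BTAF1 and a median of 58.7% over all windows. These matches describe letters, not binding.

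Libraries held 41.8 to 62.5 M estimated counts. TAF5 itself (chromosome 10, 103367966 to 103389065, hg38) stood at 87.61, 87.49 and 88.86 CPM in the ΔE8 libraries (CPM being the count scaled to a library of common size), 102.6, 105.6 and 107.4 CPM in FL, 6.131, 7.354 and 6.685 CPM in siTAF5 and 39.17, 40.5 and 40.21 CPM in siNT. This gene-level count checks that TAF5 was depleted and then supplied, to 2.63-fold the siNT level in FL and 2.2-fold in ΔE8. It cannot show which construct lacks exon 8, and ATP5MK overlaps TAF5 on the opposite strand. Of 8 embryonic kidney markers 7 exceeded 1 CPM in some library, with summed levels of 116 to 121 CPM in ΔE8, 125 to 129 in FL, 127 to 129 in siTAF5 and 139 to 142 in siNT. Summed levels of 4 epithelial markers were 425 to 440 CPM in ΔE8, 488 to 512 in FL, 391 to 402 in siTAF5 and 458 to 463 in siNT, and those of 3 neuronal cytoskeleton genes were 305 to 330, 323 to 344, 351 to 374 and 398 to 412 CPM in the same order of groups. Of 6 fibroblast genes 3 exceeded 1 CPM, with sums of 10.7 to 10.8 CPM in ΔE8, 10.6 to 12.1 in FL, 13 to 13.8 in siTAF5 and 19.2 to 19.9 in siNT. All 3 endothelial, 4 blood and 2 keratinocyte markers stayed under 1 CPM in every library. Single genes departed from their sums. EYA1 averaged 10.3 CPM in FL and 9.25 in siNT, while the other kidney markers averaged highest in siNT. PDGFRA averaged 2.66 CPM in siTAF5 and 2.33 in siNT, with overlap, while COL1A1 and COL3A1 averaged highest in siNT. INA averaged 37.4 CPM in siNT, 43.1 in siTAF5, 55.8 in ΔE8 and 60.8 in FL. NEFL, the bulk of the neuronal sum, and NEFM were instead highest in siNT. CDH1 averaged 11.9 CPM in siNT, 6.53 in siTAF5, 6.4 in FL and 3.77 in ΔE8, whereas KRT8 and KRT18 were higher in FL than in siNT. EPCAM averaged 86.7 CPM in FL and 84.4 in siNT, and the libraries of these groups overlapped. The part of these marker shifts in the results below was not tested, and in bulk RNA fewer cells of a type and less RNA per cell cannot be told apart.

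Across the 4 groups, BTAF1 and TAF2 spread most and TBP least. Testing for any difference among the groups called 6 of the 7 at a threshold of 0.05 on the adjusted p, which is the Benjamini-Hochberg value over all genes of the edgeR quasi-likelihood test here and below, beside 72.3% of all genes. TBP was the gene that did not pass (adjusted p = 0.111). The gap between the highest and lowest group mean was 0.10 on the log2 scale for TBP, 0.12 each for TBPL1, TAF1 and TAF7, 0.16 for DRAP1, 0.30 for TAF2 and 0.43 for BTAF1, beside a median of 0.40 over the 19424 genes tested. The gaps of TBP, TBPL1, TAF1 and TAF7 lay at percentiles 4.15, 6.63, 6.29 and 6.41 of those genes, that of DRAP1 at 12.2, that of TAF2 at 35.6 and that of BTAF1 at 55. Over the 12 libraries the coefficient of variation was 11.6% for BTAF1 and 9% for TAF2, at percentiles 77.9 and 59.9 of the 7084 genes expressed at least as highly as the lowest of the 7 (median 7.92%). It was 3.69% to 5.27% for the other 5 genes, at percentiles 8.36 to 23.7. The calls of TAF7 (adjusted p = 0.0366) and TBPL1 (adjusted p = 0.0395) were narrow. TAF7 lost its call in 8 of the 12 fits that each left out 1 library, and kept it without ΔE8 replicate 2, FL replicate 1, siNT replicate 2 or siNT replicate 3. TBPL1 lost its call in 6 of the 12, those without FL replicate 1 or 3, siTAF5 replicate 1 or 3, or siNT replicate 2 or 3. Adjusted p in these fits reached 0.143 for TAF7 and 0.186 for TBPL1.

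**Figure D1:**
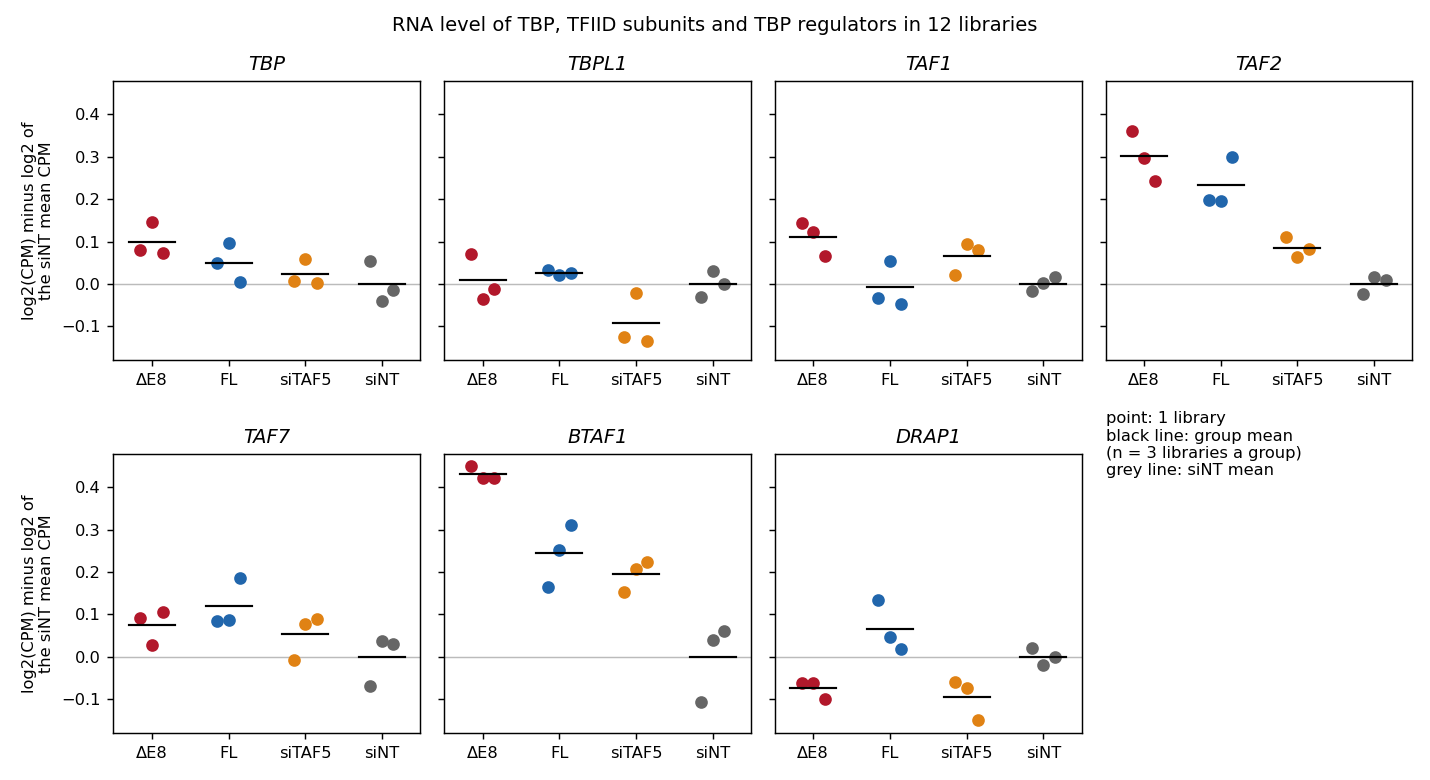
RNA level of the 7 genes in each of 12 libraries (points) as log2 CPM minus the log2 of the siNT mean, with black lines at group means of 3 libraries, for ΔE8, FL, siTAF5 and siNT cells. BTAF1 and TAF2 spread most between groups (0.43 and 0.30 between the highest and lowest group mean), and TBP least (0.10).

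Set per length of annotated exon, the order of the RNA levels over the 12 libraries was TAF7, DRAP1, TBP, BTAF1, TAF2, TBPL1 and TAF1. TAF7 averaged 49.6 ± 2.19 CPM per kb (SD, n = 12) and DRAP1 22.8 ± 1.2. TBP stood at 13.1 ± 0.484 CPM per kb, BTAF1 at 13 ± 1.51 and TAF2 at 10.2 ± 0.917. The order of BTAF1 and TBP turned with the group: BTAF1 had 15 ± 0.164 CPM per kb in ΔE8 and 11.1 ± 0.696 in siNT (SD, n = 3 each), where TBP had 13.6 ± 0.38 in ΔE8 and 12.7 ± 0.44 in siNT. TBPL1 at 6.86 ± 0.291 CPM per kb was 0.502 to 0.544 of TBP in the group means. TAF1 was lowest at 6.33 ± 0.269 CPM per kb. With the length of the longest coding transcript instead, a choice made after seeing the data, TAF1 (8.9 CPM per kb) and TBPL1 (8.17) changed places. DRAP1 reached 40.1 CPM per kb and stayed next after TAF7. TBP (16 ± 0.59) stood above BTAF1 (13.6 ± 1.58), now in every group, with 16.6 against 15.7 in ΔE8. The order of TAF1 and TBPL1, and the turn of BTAF1 and TBP with the group, thus depend on the length used.

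TBP (chromosome 6, 170554302 to 170572870, plus strand, hg38) held an almost level RNA in all groups. Its libraries measured 31.18, 32.64 and 31.05 CPM in ΔE8, 30.53, 31.55 and 29.58 in FL, 29.63, 30.72 and 29.56 in siTAF5, and 30.65, 28.68 and 29.21 in siNT. The groups overlapped except ΔE8, whose lowest library lay above all siTAF5 and siNT libraries. TBP was 0.02 higher on the log2 scale in siTAF5 than in siNT (95% interval -0.06 to 0.10, adjusted p = 0.651), an interval that leaves room for a change of up to 1.07-fold. Of the 6 comparisons between groups, TBP passed in ΔE8 against siNT, where it rose 1.07-fold (log2 0.10, SE 0.0385, adjusted p = 0.0278). That call was lost without ΔE8 replicate 2 (adjusted p = 0.167), siNT replicate 2 (0.126) or siNT replicate 3 (0.081). In ΔE8 against FL the difference was 0.05 on the log2 scale (95% interval -0.03 to 0.13, adjusted p = 0.341).

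TBPL1 (chromosome 6, 133952170 to 133990432, plus strand), a TBP paralogue that serves promoters without a TATA box, was lowest in siTAF5 cells. It measured 36.63, 34.01 and 34.61 CPM in ΔE8, 35.68, 35.41 and 35.52 in FL, 31.96, 34.36 and 31.76 in siTAF5, and 34.13, 35.64 and 34.88 in siNT. Replicates 1 and 3 of siTAF5 lay under every other library, and replicate 2 lay among them. TBPL1 rose 1.09-fold in FL over siTAF5 (log2 0.12, SE 0.0393, adjusted p = 0.0157) and 1.07-fold in ΔE8 over siTAF5 (log2 0.10, SE 0.039, adjusted p = 0.0418), while siTAF5 against siNT gave log2 -0.09 and did not pass (SE 0.0386, adjusted p = 0.0514). These comparisons share the siTAF5 libraries and are not independent. Without siTAF5 replicate 1 or 3 the FL call was lost (adjusted p = 0.0579 and 0.0773) as was the ΔE8 call (0.0999 and 0.126), which was lost also without ΔE8 replicate 1 (0.154), siNT replicate 2 (0.05) or siNT replicate 3 (0.0518). The siTAF5-against-siNT difference passed in 6 of the 12 fits that left out a library, at -0.15 (adjusted p = 0.00599) without siTAF5 replicate 2 and at -0.11 without any single ΔE8 library, FL replicate 2 or siNT replicate 1. It passed also with DESeq2's size factors (adjusted p = 0.044), upper-quartile factors (0.0208) or a filter of 10 counts in every library (0.0227). TBPL1 is also uncertain in its counting: the estimate was not whole in any of the 12 libraries, and SLC2A12, a sugar transporter gene on the opposite strand, overlaps it and averaged 1039 counts a library beside 1852 for TBPL1. Whether reads were counted by strand is not stated in the sources used here. SLC2A12 averaged 14.2 ± 0.685 CPM in ΔE8, 15.3 ± 1.39 in FL, 22.3 ± 1.2 in siTAF5 and 24.6 ± 0.683 in siNT (SD, n = 3 each), and its part in the TBPL1 values was not tested.

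TAF1 (chromosome X, 71366222 to 71532374, plus strand), the largest TFIID subunit, was highest in ΔE8 cells. Its libraries measured 73.7, 72.63 and 69.89 CPM in ΔE8, 65.27, 69.31 and 64.61 in FL, 67.68, 71.26 and 70.56 in siTAF5, and 65.98, 66.8 and 67.49 in siNT. Every ΔE8 library exceeded every FL and siNT library, and the siTAF5 libraries lay just above siNT. TAF1 rose 1.09-fold in ΔE8 over FL (log2 0.12, SE 0.0322, adjusted p = 0.00553) and 1.08-fold in ΔE8 over siNT (log2 0.11, SE 0.0317, adjusted p = 0.00441). With upper-quartile scaling the second of these calls was lost (log2 0.07, adjusted p = 0.0561). FL and siNT differed by -0.01 on the log2 scale (95% interval -0.08 to 0.06), and siTAF5 against siNT gave 0.07 (adjusted p = 0.094). ΔE8 against siTAF5 gave 0.05 and did not pass (adjusted p = 0.27), and the libraries of these groups overlapped. FL against siTAF5 gave -0.07 (adjusted p = 0.0623) and passed without FL replicate 2 (-0.11, 0.0141) or siTAF5 replicate 1 (-0.09, 0.0368), with upper-quartile factors (0.0207), with library totals alone (0.00402), with no low-count filter (0.048) or with 10 counts in every library (0.0485).

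TAF7 (chromosome 5, 141259884 to 141320784, minus strand), which binds TAF1 and holds its enzymatic activity in check, had the most RNA per length of the 7. It measured 137.7, 131.8 and 139.1 CPM in ΔE8, 137, 137.3 and 147.2 in FL, 128.7, 136.5 and 137.5 in siTAF5, and 123.3, 132.6 and 132.1 in siNT. FL libraries lay above all siNT libraries, and the other groups overlapped each other. TAF7 rose 1.09-fold in FL over siNT (log2 0.12, SE 0.0354, adjusted p = 0.00765), a call lost without FL replicate 3 (adjusted p = 0.0618) or siNT replicate 1 (0.0521). In ΔE8 against siNT it was 0.07 higher on the log2 scale (adjusted p = 0.076). That difference passed without ΔE8 replicate 2 (0.09, adjusted p = 0.0492), with library totals alone (0.09, 0.0438) or with the replicate number as a block (0.08, 0.0317). The longest coding transcript of TAF7 is a single exon, and the estimate was not whole in 10 of 12 libraries (over 0.05 from a whole number), so its count is uncertain where related sequences share its reads. The germ-line paralogues TAF1L and TAF7L held 0 to 12 and 2 to 14 counts a library, rounded.

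TAF2 (chromosome 8, 119730774 to 119832863, minus strand), the subunit that contacts the initiator, was higher in both groups with a TAF5 transgene. Its libraries measured 76.77, 73.43 and 70.72 CPM in ΔE8, 68.61, 68.45 and 73.59 in FL, 64.51, 62.49 and 63.27 in siTAF5, and 58.75, 60.4 and 60.17 in siNT. ΔE8 and FL overlapped, both lay above every siTAF5 library, and every siTAF5 library lay above every siNT library. TAF2 rose 1.16-fold in ΔE8 over siTAF5 (log2 0.22, SE 0.0339, adjusted p = 3.42e-05) and 1.11-fold in FL over siTAF5 (log2 0.15, SE 0.0343, adjusted p = 0.00137). Against siNT it rose 1.23-fold in ΔE8 (log2 0.30, SE 0.0338, adjusted p = 1.44e-07) and 1.17-fold in FL (log2 0.23, SE 0.0342, adjusted p = 9.04e-06). All 4 comparisons reuse the same libraries and are not independent. ΔE8 against FL gave 0.07 (adjusted p = 0.106) and passed without ΔE8 replicate 3 (0.10, adjusted p = 0.029) or FL replicate 3 (0.10, 0.0248). siTAF5 against siNT gave 0.08 (SE 0.0342) and passed narrowly, at an adjusted p of 0.0459, which was lost in 10 of the 12 fits that left out a library (adjusted p 0.0664 to 0.238) and kept without FL replicate 1 or FL replicate 3.

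BTAF1 (chromosome 10, 91923770 to 92031437, plus strand), the ATPase that releases TBP from DNA, changed most among the 7. Its libraries measured 115.2, 113.1 and 113 CPM in ΔE8, 94.63, 100.5 and 104.7 in FL, 93.84, 97.33 and 98.58 in siTAF5, and 78.36, 86.76 and 88.08 in siNT. The siNT libraries were the lowest and the ΔE8 libraries the highest, with no overlap with any other group, while FL and siTAF5 overlapped. BTAF1 rose by 14.4% in siTAF5 over siNT (log2 0.19, SE 0.0395, adjusted p = 0.000366) and did not return to the siNT level with either transgene. In FL it stood 18.1% above siNT (log2 0.24, SE 0.0397, adjusted p = 3.3e-05) and differed from siTAF5 by 0.05 on the log2 scale (95% interval -0.04 to 0.13, adjusted p = 0.362). In ΔE8 it rose further, 17.8% over siTAF5 (log2 0.24, SE 0.039, adjusted p = 6.68e-05), 14.1% over FL (log2 0.19, SE 0.0393, adjusted p = 0.000687) and 34.8% over siNT (95% interval 1.27 to 1.43-fold, adjusted p = 7.86e-09). The lowest siNT library, replicate 1, set part of the first of these differences, which was 0.14 on the log2 scale without it and still passed.

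DRAP1 (chromosome 11, 65919274 to 65921563, plus strand), the alpha subunit of NC2, was lower in ΔE8 and siTAF5 cells than in FL and siNT cells. It measured 38.6, 38.64 and 37.65 CPM in ΔE8, 44.21, 41.63 and 40.83 in FL, 38.68, 38.3 and 36.34 in siTAF5, and 40.9, 39.77 and 40.31 in siNT. Every ΔE8 and siTAF5 library lay under every FL and siNT library. DRAP1 fell by 6.37% in siTAF5 against siNT (log2 -0.10, SE 0.0361, adjusted p = 0.0345) and fell by 9.43% in ΔE8 against FL (log2 -0.14, SE 0.0366, adjusted p = 0.00415), a pair of comparisons with no library in common. The first of these was lost without siTAF5 replicate 3 (adjusted p = 0.103), siNT replicate 1 (0.0912) or siNT replicate 3 (0.0711). It rose 1.12-fold in FL over siTAF5 (log2 0.16, SE 0.0366, adjusted p = 0.000852), and in ΔE8 over siTAF5 the difference was 0.02 (95% interval -0.06 to 0.10, adjusted p = 0.68). ΔE8 against siNT gave -0.07, which did not pass (adjusted p = 0.0853).

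DR1, the beta subunit that pairs with DRAP1 in NC2, had another pattern. It averaged 162 ± 6.18 CPM in ΔE8, 160 ± 4.24 in FL, 144 ± 4.03 in siTAF5 and 149 ± 3.06 in siNT (SD, n = 3 each). DR1 rose 1.12-fold in ΔE8 over siTAF5 (log2 0.17, SE 0.0307, adjusted p = 0.000176) and 1.11-fold in FL over siTAF5 (log2 0.15, SE 0.0308, adjusted p = 0.00031). ΔE8 and FL differed by 0.02 (95% interval -0.05 to 0.08, adjusted p = 0.743), and siTAF5 against siNT gave -0.06 (adjusted p = 0.128). Whether the fold changes of DRAP1 and DR1 differ was not tested.

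**Figure D2:**
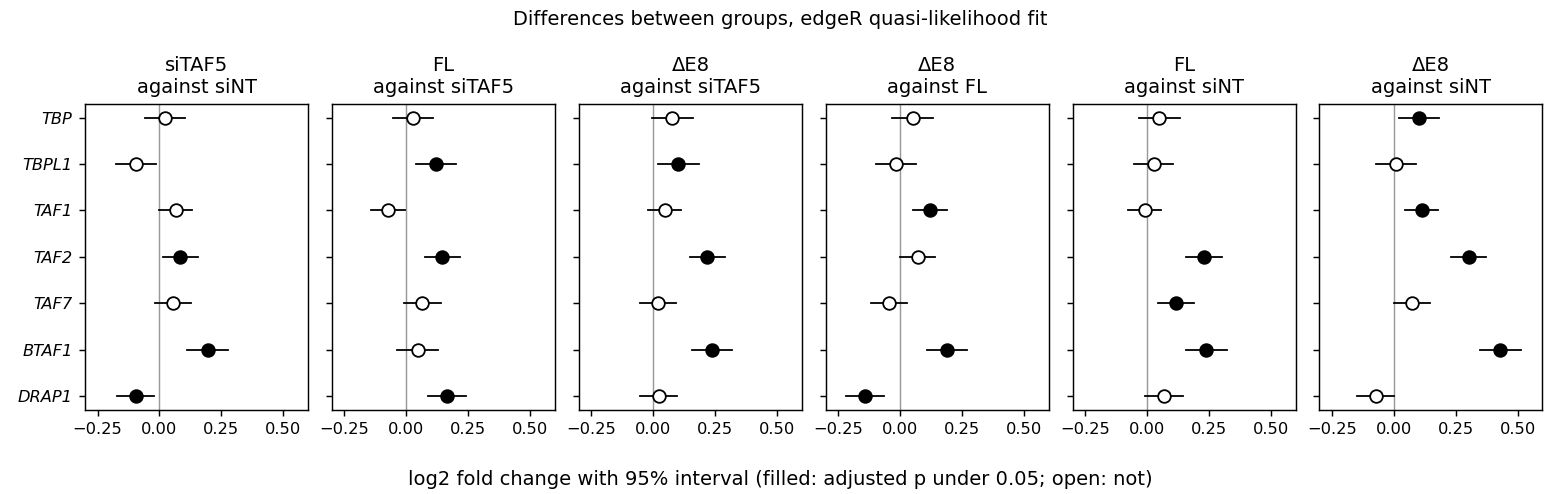
log2 fold change of each of the 7 genes with its 95% interval in 6 comparisons, from the edgeR quasi-likelihood fit, filled where the adjusted p was under 0.05 and open where it was not. In ΔE8 against FL, TAF1 (0.12) and BTAF1 (0.19) lay above 0 and DRAP1 (-0.14) below, with the other genes open.

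Taken by comparison, depletion of TAF5 (siTAF5 against siNT) called 3 of the 7 genes, BTAF1 and TAF2 higher and DRAP1 lower, beside 49.7% of all genes called, 24.7% higher and 25% lower. In 4 of the 7 genes the siTAF5 and siNT libraries did not overlap, beside 57.3% of all genes. With DESeq2's size factors the split of the 7 was 1 higher and 2 lower, since TBPL1 passed and TAF2 did not, and with library totals alone it was 4 higher and 0 lower. The median size of the log2 change was 0.08 over the 7 and 0.19 over all genes tested. Return of full-length TAF5 (FL against siTAF5) called 3 of 7, TBPL1, TAF2 and DRAP1, all higher, beside 48.8% of all genes called, 24.4% higher and 24.4% lower. FL and siTAF5 libraries stayed apart in 3 of 7, beside 56.3% of all genes without overlap. Return of TAF5 without exon 8 (ΔE8 against siTAF5) called TBPL1, TAF2 and BTAF1 higher and none lower, beside 40.6% of all genes called, 20% higher and 20.6% lower. Here too 3 of 7 did not overlap, beside 49.9% of all. The counts of the 7 in these comparisons were near or under the share of all genes.

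The constructs differed in 3 of the 7 genes. ΔE8 against FL called TAF1 and BTAF1 higher and DRAP1 lower, beside 37% of all genes called, 17.3% higher and 19.7% lower, and the groups did not overlap for these 3 genes, beside 45.7% of all. The 4 that did not pass were TBP, TBPL1, TAF2 and TAF7, with intervals that reached no further than -0.12 on the lower and 0.14 on the upper side of the log2 scale. FL against siNT sets the full-length transgene, with more TAF5 RNA than in siNT, beside cells with their own TAF5. It called TAF2, TAF7 and BTAF1 higher, beside 54.6% of all genes called, 27.8% higher and 26.8% lower. For 3 of 7 the groups did not overlap, beside 59.7% of all. ΔE8 against siNT called TBP, TAF1, TAF2 and BTAF1 higher and none lower, beside 62.2% of all genes called, 30.8% higher and 31.4% lower. The groups did not overlap for 5 of 7, beside 65.7% of all. The median size of the log2 change in ΔE8 against siNT was 0.10 over the 7 and 0.28 over all genes. In none of the 6 comparisons did the median size over the 7 (0.07 to 0.10) reach that over all genes (0.15 to 0.28). The all-gene medians were not matched for expression. Of the 19424 genes tested, 7084 were expressed at least as highly as the lowest of the 7.

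**Figure D3:**
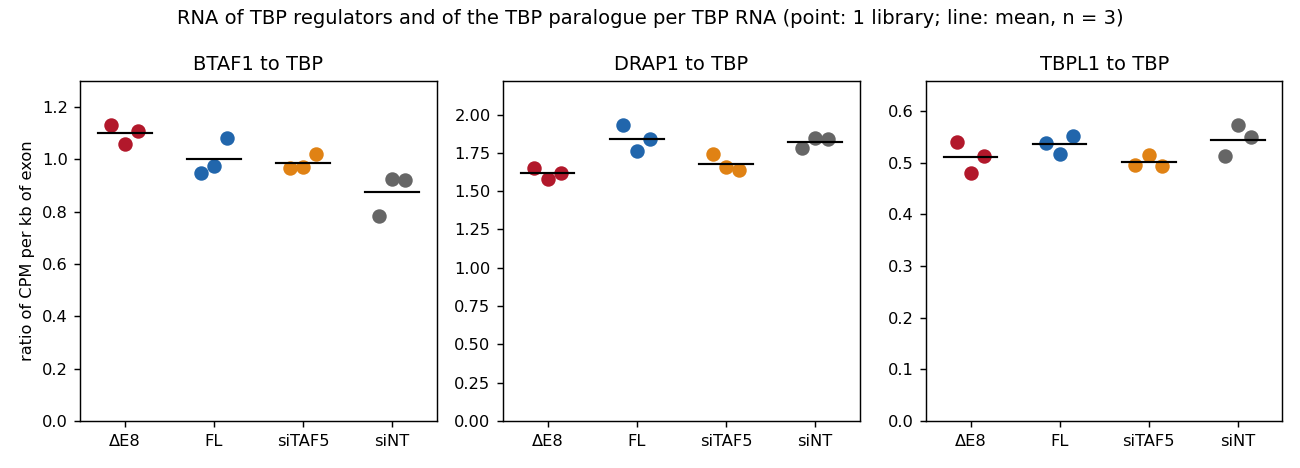
Ratio of CPM per kb of BTAF1, DRAP1 and TBPL1 to that of TBP in each library (points), with lines at the means of 3 libraries, for ΔE8, FL, siTAF5 and siNT cells. The BTAF1 ratio is highest in ΔE8 (1.06 to 1.13) and lowest in siNT (0.782 to 0.925), and the DRAP1 ratio in ΔE8 (1.58 to 1.65) lies under that in FL (1.76 to 1.93).

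Set against TBP RNA within each library, the regulators moved apart. The ratio of BTAF1 to TBP per kb was 1.13, 1.06 and 1.11 in ΔE8, 0.948, 0.974 and 1.08 in FL, 0.968, 0.969 and 1.02 in siTAF5, and 0.782, 0.925 and 0.922 in siNT. All ΔE8 libraries lay above all siTAF5 and siNT libraries, and 1 FL library reached into the ΔE8 range. The ratio of DRAP1 to TBP was 1.65, 1.58 and 1.62 in ΔE8, 1.93, 1.76 and 1.84 in FL, 1.74, 1.66 and 1.64 in siTAF5, and 1.78, 1.85 and 1.84 in siNT. ΔE8 did not overlap FL, and siTAF5 did not overlap siNT. The ratio of TBPL1 to TBP averaged 0.511 ± 0.0306 in ΔE8, 0.535 ± 0.0181 in FL, 0.502 ± 0.0116 in siTAF5 and 0.544 ± 0.0303 in siNT (SD, n = 3 each). These ratios are descriptions of RNA, with no test.

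The proteins that TBP and these subunits work with were read from 4 lists, each given whole and written with earlier results of these data known. Other TFIID subunits numbered 11, all with a histone fold. In siTAF5 against siNT 7 rose and 1 fell (median log2 0.28), beside 49.7% of all genes called. In ΔE8 against FL 7 rose and 1 fell (median 0.15), beside 37% of all genes. All-gene medians lay between -0.01 and 0.01 in every comparison. TAF12, which pairs with TAF4, averaged 34.2 ± 1.34 CPM in ΔE8, 21 ± 0.847 in FL, 32.2 ± 0.733 in siTAF5 and 17.1 ± 0.492 in siNT, and was 1.63-fold higher in ΔE8 than in FL (adjusted p = 1.74e-10). TAF4, the scaffold subunit of that pair, was 1.26-fold higher in ΔE8 than in FL (adjusted p = 4.05e-08). In FL against siTAF5 the 11 split into 4 higher and 4 lower, beside 48.8% of all genes called. In ΔE8 against siTAF5, 6 were higher and none lower, beside 40.6%. Against siNT, 6 were higher and 2 lower in FL (54.6% of all genes called). In ΔE8 against siNT 8 were higher and 2 lower (62.2%).

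TFIIA, TFIIB and TFIIF are the factors that join TBP on a class II promoter. Of their 5 genes, 3 rose and 1 fell in siTAF5 against siNT (median log2 0.13), beside 49.7% of all genes called. In ΔE8 against FL 1 rose, GTF2A1, beside 37% of all genes. That count was 2 without ΔE8 replicate 3 or siTAF5 replicate 2. GTF2A1, the large TFIIA subunit, averaged 122 ± 2.95 CPM in ΔE8, 90.9 ± 2.71 in FL, 112 ± 3.97 in siTAF5 and 76 ± 2.66 in siNT, a rise of 1.48-fold in siTAF5 over siNT (adjusted p = 4.05e-11) and 1.34-fold in ΔE8 over FL (adjusted p = 5.84e-09). All 5 rose in ΔE8 over siTAF5, beside 40.6% of all genes called. The count was 3 with upper-quartile scaling, with library totals alone, with no low-count filter or without siTAF5 replicate 3. In FL over siTAF5, 3 rose and 1 fell (48.8% of all genes called). Against siNT 4 rose in FL (54.6%) and 4 in ΔE8 (62.2%), with none lower in either.

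TBP also works in SL1 for RNA polymerase I, and in or beside TFIIIB and SNAPc for RNA polymerase III and snRNA genes. Of the 4 SL1-specific subunits, 1 rose and 2 fell in siTAF5 against siNT, beside 49.7% of all genes called. In ΔE8 against FL 2 fell, beside 37% of all genes. TAF1D averaged 32.5 ± 1.02 CPM in ΔE8, 45.8 ± 0.993 in FL, 33 ± 0.925 in siTAF5 and 55.9 ± 4.42 in siNT, and fell 1.69-fold in siTAF5 against siNT (adjusted p = 6.34e-11) and 1.41-fold in ΔE8 against FL (adjusted p = 9.53e-08). TAF1B fell by 13.1% (adjusted p = 0.000123) and fell by 18.7% (adjusted p = 2.84e-06) in the same comparisons. Both rose in FL over siTAF5 (48.8% of all genes called). None of the 4 passed in ΔE8 against siTAF5 (40.6%), where the smallest unadjusted p was 0.0534 and DESeq2 and limma also called 0. Against siNT, 3 of the 4 rose and 1 fell in FL (54.6%), and 1 rose and 2 fell in ΔE8 (62.2%).

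Of the 8 TFIIIB and SNAPc genes, 2 rose and 5 fell in siTAF5 against siNT (median log2 -0.14; 49.7% of all genes called). In ΔE8 against FL 1 rose and 3 fell (median -0.08), beside 37% of all genes. BDP1, a TFIIIB subunit, fell 1.17-fold in siTAF5 against siNT (adjusted p = 5.89e-06) and 1.12-fold in ΔE8 against FL (adjusted p = 0.000724). SNAPC2 fell by 19.7% (adjusted p = 4.06e-05) and fell by 13.1% (adjusted p = 0.00653) in the same pair. BRF2, the TFIIB-related factor of snRNA-type promoters, was instead higher in both groups with a transgene, at 21 ± 1.2 CPM in ΔE8 and 20.1 ± 0.833 in FL, against 14.9 ± 0.365 in siTAF5 and 13.6 ± 0.495 in siNT. Of the 8 genes, 4 rose and 1 fell in FL over siTAF5 (48.8% of all genes called), and 3 rose in ΔE8 over siTAF5 with none lower (40.6%). Against siNT, 4 rose and 3 fell in FL (54.6%), and 2 rose and 4 fell in ΔE8 (62.2%). The ΔE8-against-FL count of 4 was 2 without ΔE8 replicate 1 or FL replicate 3. With 4 to 11 genes a list, these counts describe the listed genes only. Some, such as 3 of 8 in ΔE8 against siTAF5, lie near the share of all genes.

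**Figure D4:**
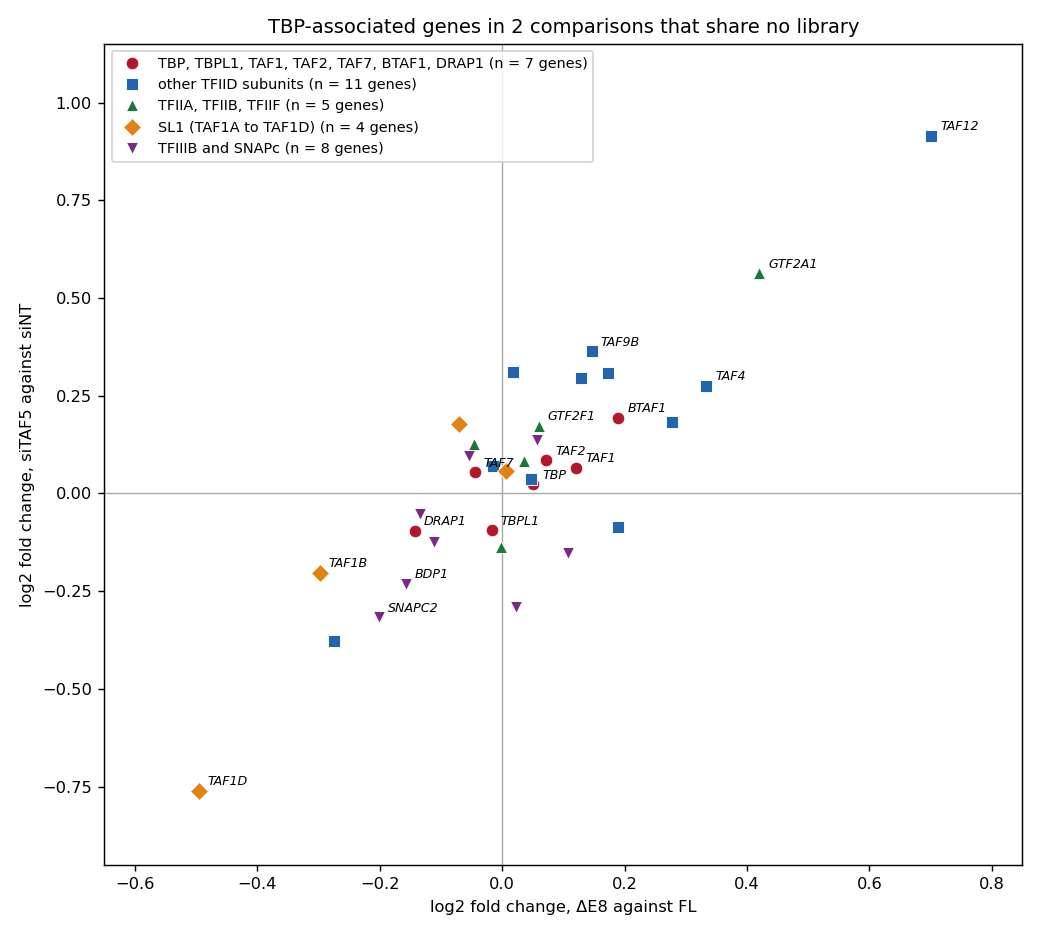
log2 fold change in siTAF5 against siNT (vertical) by that in ΔE8 against FL (horizontal), 2 comparisons with no library in common, for the 7 genes (red circles) and 28 listed partners of TBP (other symbols). TAF12 lies at the upper right (0.92 and 0.70) and TAF1D at the lower left (-0.76 and -0.50), while the 7 genes lie within 0.20 of 0 on both axes.

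Among 12270 named genes at a mean log2 CPM of 2 or more, the profile of BTAF1 over the 12 libraries was most like those of PPP2R5E (Pearson r = 0.985, Spearman rho = 0.979) and DYRK1A (0.98 and 0.937). The profile of TAF2 was most like those of NUP50 (r = 0.979, rho = 0.965) and MED6 (0.978 and 0.965), and that of DRAP1 like those of ZBED3 (0.956 and 0.958) and PALLD (0.943 and 0.874). For the other genes likeness was lower: TBPL1 with STAG2 (r = 0.932, rho = 0.909), TAF1 with TRAPPC10 (0.912 and 0.93), TAF7 with COX20 (0.903 and 0.86) and TBP with SUPT20H (0.886 and 0.867). Between the 7 genes, the closest pair was TAF2 and BTAF1 (r = 0.901), and the most opposed pair was TAF1 and DRAP1 (r = -0.66). The 12 points share groups and library sizes, so these values describe the libraries and carry no p.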

How the data were processed

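Polyadenylated RNA of 12 HEK293 Flp-In libraries was sequenced with a stranded kit, per the labels' protocols. Values in the deposited table are expected counts (reads per gene as estimated by the quantifier, 46.5% of entries not whole), and a column of genomic span in bases was not used. Per the submitters' processing notes the tools included STAR 2.7.0f, cutadapt 1.18, DESeq2 and Partek 10.0.23.0531, with build hg38. The quantifier, the annotation and the handling of strand were not given in the sources used here. Since the design was written for whole counts, the estimates were rounded.

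Groups came from sample titles. The 7 genes, the partner and marker lists and the tests were chosen with earlier results of these data known. Tools were edgeR 4.0.16, DESeq2 1.42.0 and limma 3.58.1 in R 4.3.3. The filter was filterByExpr (minimum count 10), and scaling factors came from edgeR's TMM method. All 12 libraries entered 1 quasi-likelihood fit with a mean per group and no replicate block, with two-sided tests, p-values adjusted over 19424 genes (Benjamini-Hochberg) and a threshold of 0.05. The SE is the log2 change divided by the square root of F. Levels are relative to the bulk of genes, which hides any change in the total RNA of a cell. Library totals were 41.8 to 62.5 M, replicates differed by more than counting error (chi-square per degree of freedom 2.6 to 5.14), with a biological coefficient of variation of 2.82% in common.

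All 7 genes and TAF5 were named, and of each partner list at most the 2 genes with the smallest adjusted p in a comparison, beside the 2 genes with the highest Pearson correlation for each of the 7. Gene positions are those of the deposited table, exon lengths are from GENCODE release 29, and promoters are from RefSeq. The fit was tested on simulated counts. Alternatives were other scalings, filters and tools, a replicate block, a minimum fold, the 2 groups alone and leaving out each library.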

Additional observations from a re-analysis of the deposited data

Results flagged for a closer look

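In 3 of the 7 genes the addition of TAF5 to siTAF5 cells had an effect that differed between the constructs, as tested by ΔE8 against FL (edgeR quasi-likelihood test, Benjamini-Hochberg). Of all genes tested 37% were called and 45.7% did not overlap in that comparison, so 3 of 7 is near the share of all genes. For BTAF1 the effect of ΔE8 exceeded that of FL by 0.19 on the log2 scale (adjusted p = 0.000687), with 114 ± 1.24 CPM in ΔE8 and 99.9 ± 5.06 in FL, and all 3 ΔE8 libraries above all 3 FL libraries. For TAF1 it exceeded that of FL by 0.121 (adjusted p = 0.00553), with 72.1 ± 1.96 CPM in ΔE8 and 66.4 ± 2.54 in FL, again without overlap. For DRAP1 the difference was -0.143 (adjusted p = 0.00415), with 38.3 ± 0.559 CPM in ΔE8 and 42.2 ± 1.77 in FL, without overlap. Against siTAF5 itself, TAF1 was called neither in ΔE8 (log2 0.05, adjusted p = 0.27) nor in FL (-0.07, 0.0623). BTAF1 was called against siTAF5 in ΔE8 but not in FL (adjusted p = 0.362), and DRAP1 in FL but not in ΔE8 (0.68). TAF5 RNA itself was lower in ΔE8 than in FL (log2 -0.26), and the part of that difference in these 3 genes was not tested. Construct and doxycycline dose cannot be told apart.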

How the results depend on the processing

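The count of the 7 genes called in siTAF5 against siNT was 3, and 1 with DESeq2's own test (44.7% of all genes), 0 with a minimum fold of 1.1 (29.2%), and 1 to 3 when libraries were left out in turn. With the minimum fold the count was 0 in FL against siTAF5 (28.7% of all genes) and in ΔE8 against FL (15.4%), and 2 in ΔE8 against siNT (TAF2 and BTAF1; 46.4%). No result changed direction past a threshold. Over 22 alternatives, results of the 7 genes and TAF5 in the 6 comparisons kept their side of the threshold in 974 cases, lost a call in 58 and gained one in 24, among them TBPL1 in siTAF5 against siNT under 9 and TAF1 in FL against siTAF5 under 6. For any difference among groups, TAF7 lost its call under 12 of 20 and TBPL1 under 10 of 20. BTAF1 and TAF2 kept their calls in ΔE8 against siTAF5, FL against siNT and ΔE8 against siNT under all 22. TAF2 in siTAF5 against siNT lost its call under 18 of 22 (log2 0.06 to 0.09 and adjusted p 0.0505 to 0.984 in those), TBPL1 in ΔE8 against siTAF5 under 10, TBP in ΔE8 against siNT under 8, and DRAP1 in siTAF5 against siNT under 6. The cause was not tested.

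Scaling moved the median of all genes by at most 0.05 on the log2 scale. With library totals alone the split of all calls was 5662 higher and 4140 lower in siTAF5 against siNT (4802 and 4848 with the scaling used), 3748 and 5788 in FL against siTAF5 (4745 and 4732), and 4072 and 3184 in ΔE8 against FL (3359 and 3819). In ΔE8 against siTAF5 it was 3201 and 4687 with upper-quartile factors (3891 and 3993).

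Same-numbered replicates deviated together weakly at most: 0 of 18 correlations between groups, taken over all genes tested, exceeded 0.1 (-0.051 to 0.051). Yet 10 of 12 libraries correlated best with their own number, so these values cannot tell whether the numbers pair the samples. With the replicate number as a block, 2 of the 7 genes were called in siTAF5 against siNT (50.4% of all genes), without TAF2 (adjusted p = 0.051), 5 in ΔE8 against siNT (62.9%), with TAF7 (log2 0.08, adjusted p = 0.0317), 3 in each other comparison (38.1% to 55% of all genes) and 6 for any difference. SEs of 0.0317 to 0.0397 on the log2 scale set the size of difference that 3 libraries a group can show for these genes.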
